A study of Mus musculus with 9 samples.

Results

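The genes for 8 RNA-binding proteins that set how long inflammatory messenger RNAs last were followed in quadriceps muscle of mice with volumetric muscle loss, a wound made by removing a piece of the muscle. The members were taken by symbol: Zc3h12a (regnase-1), Zfp36 (tristetraprolin), Zfp36l1, Zfp36l2, Rc3h1 and Rc3h2 (the roquins), Arid5a and Elavl1 (HuR). They are 8 of the 55536 genes in the count files, and all 8 passed the filter on low counts that left 16039 genes. Bulk RNA sequencing covered 5 libraries labelled Il17ra-/- and 4 labelled wild type (WT). All libraries come from C57BL/6 mice, and the labels give an age of 6 weeks for each. The characteristics name saline and a harvest at 1 week, whereas the protocol names PCL and 6 weeks, and the files do not settle which applies. The design text speaks of triplicate animals, fewer than the libraries here. The labels do not describe the Il17ra allele, and they do not say which animal each library came from, so p-values measure the spread between these libraries.

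Messenger RNAs of cytokines and chemokines are short-lived because their 3′ untranslated regions (UTRs) carry elements that decay proteins read. Regnase-1 is an endonuclease that cuts at stem-loops, the roquins bind similar stem-loops and recruit the CCR4-NOT deadenylase, and the tristetraprolin family binds AU-rich elements and recruits the same deadenylase. Arid5a and HuR bind such messages and stabilise them. Arid5a is known to oppose regnase-1 on Il6, and interleukin-17 is known to induce both Arid5a and regnase-1. In muscle, tristetraprolin is known to promote decay of Myod1 mRNA in quiescent satellite cells, and HuR to stabilise myogenic messages.

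Il17ra, the targeted gene, goes against its label. It stood at 199.8, 185, 181, 284 and 191 CPM (TMM-scaled counts-per-million) in libraries labelled Il17ra-/- and at 75.9, 107, 85.4 and 119 CPM in those labelled WT. The groups did not overlap (log2 fold change 1.11, SE 0.17, edgeR adjusted p = 0.00208). The count covers all exons of the gene and the allele is not described, so it cannot show whether label and genotype match. Directions are given by label only. Library totals ran from 35221211 to 46435401 counts under the Il17ra-/- label and 31294089 to 37580589 under the WT label. WT replicate 2 stood apart on the first principal component (38.2% of variance), at −66.2, with the other libraries between −7.66 and 27.5. Il17ra-/- replicate 1, at 27.5, was the farthest on the other side, with the rest of its group at 9.66 to 17.8, and had stood apart in earlier results. WT replicate 2 and Il17ra-/- replicate 1 also had the fewest genes with a count, 17256 and 18248, against 19258 to 20945 in the other libraries. Without both WT replicate 2 and Il17ra-/- replicate 1, Zc3h12a and Arid5a were still called (−1.19 and −1.79). Cell type markers also moved with the labels. Summed levels in libraries labelled Il17ra-/- and WT were 3054 to 4064 against 1045 to 2659 CPM for 8 muscle fibre markers (4 higher) and 1396 to 2003 against 852 to 1167 CPM for 5 pericyte and smooth muscle markers (4 higher). They were 215 to 259 against 123 to 171 CPM for 5 satellite cell markers (2 higher) and 12.7 to 20.1 against 23.8 to 39.6 CPM for 10 leukocyte markers. Among those, Cd68 alone was called (−2.80), at 1.30 to 3.85 against 11.5 to 24.2 CPM, while Lyz2 had −0.15, Cd14 0.18, Csf1r 0.75 and Adgre1 0.93, and Ptprc was on the higher side too. The leukocyte markers Ptprc, Itgam, Cd3e and S100a8 stayed below 0.5 CPM in all libraries, and no marker of any list was at 0 in all of them. The sums of 6 fibroblast markers (1 lower), 5 endothelial, 5 adipocyte (1 higher) and 5 Schwann cell markers overlapped. The part of these markers in the members' changes was not tested, and in bulk samples fewer cells of a type and less RNA per cell cannot be told apart.

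Of the 8 genes, Arid5a and Zc3h12a fell in the libraries labelled Il17ra-/-, and no other member passed the test. Arid5a, a stabiliser, averaged 25.5 ± 9.98 CPM (SD, n = 5) in libraries labelled Il17ra-/- and 112 ± 29.7 CPM (n = 4) in libraries labelled WT. Zc3h12a, a destabiliser, averaged 16.98 ± 2.61 CPM against 42.0 ± 4.73 CPM. The other 6 had log2 fold changes between −0.46 for Zfp36 and 0.39 for Zfp36l2. Against this stands a background of 3.06% of all tested genes called by edgeR's quasi-likelihood test at an adjusted p under 0.05, 1.71% lower and 1.35% higher in libraries labelled Il17ra-/-. The median log2 fold change of the 8 was −0.34, and that of all tested genes was −0.00. With TMM scaling 274 genes were lower and 217 higher, and with library totals alone 232 were lower and 330 higher; the median of all genes was then 0.06, and the same members were called.

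The sites these proteins read were searched in the members' own transcripts and in those of described targets, with 1 GENCODE M21 transcript per gene (GRCm38). The first set holds stem-loops of at least 6 base pairs, at most 1 of them G-U, around a loop of pyrimidine, purine and pyrimidine. This is the shape that regnase-1 and roquin bind, and the capitals mark the loop. The Tnf site is the known constitutive decay element of roquin, Nfkbiz is a regnase-1 target, and Zc3h12a and both roquins carried such sites themselves.
Zc3h12a, chr4:125119067-125119085, minus strand: uugauacaCAUuguaucuc
Zc3h12a, chr4:125118884-125118904, minus strand: guuaggcacCAUgugccugcu
Zc3h12a, chr4:125118660-125118680, minus strand: agauuuaaaUAUuuuaaauga
Rc3h1, chr1:160971657-160971677, plus strand: aauaacuucUGUgaaguugcc
Rc3h2, chr2:37373806-37373826, minus strand: auuaacuucUGUgaaguuguu
Nfkbiz, chr16:55812611-55812631, minus strand: aguuguuucUAUgaaacaaac
Nfkbiz, chr16:55812582-55812604, minus strand: aguucacuauUAUauaguggauu
Tnf, chr17:35199582-35199602, minus strand: cauguuuucUGUgaaaacgga
Zc3h12a held 3 matches in a 3′ UTR of 856 bases, and 15.1% of the 2787 3′ UTRs of similar length (80 to 125%) held at least 1. Nfkbiz held 2 in 1355 bases, where 23.2% of 3′ UTRs of similar length held any. Rc3h1 held 5 in a 3′ UTR of 7181 bases and Rc3h2 held 2 in 5160 bases, lengths at which 75.2% and 62.9% of 3′ UTRs held a match. Elavl1 held 1, and the Zfp36 family and Arid5a held none by this rule. Among the targets described further on, Il6, Cdkn1a and Myc held neither a stem-loop of this form nor the nonamer below. They held 6, 4 and 2 copies of the pentamer AUUUA, which is part of that nonamer. At their lengths 46.7%, 83.6% and 47.5% of 3′ UTRs held at least 1. A described target without a match by these 2 rules may therefore still carry shorter or other sites.

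The second set shows the AU-rich nonamer UUAUUUAUU, in capitals, searched on the transcript strand with overlaps counted. It is the preferred element of tristetraprolin, and each gene of that family carried it once, as did Rc3h1 and Rc3h2.
Zfp36, chr7:28376953-28376977, minus strand: ugacgacuUUAUUUAUUguauuaag
Zfp36l1, chr12:80108169-80108193, minus strand: cuguuggaUUAUUUAUUuuagaaau
Zfp36l2, chr17:84184916-84184940, minus strand: uauuuaacUUAUUUAUUaucuugug
Cxcl1, chr5:90892617-90892641, plus strand: uuauguauUUAUUUAUUccacaaag
Cxcl1, chr5:90892910-90892934, plus strand: aaugucagUUAUUUAUUgaaagucg
At the lengths of these 3′ UTRs the nonamer was present in 4.53% (Zfp36, 774 bases), 9.64% (Zfp36l1, 1835 bases) and 9.57% (Zfp36l2, 1822 bases) of 3′ UTRs. At the longer lengths of Rc3h1 (7181 bases) and Rc3h2 (5160 bases) it was present in 27.0% and 21.9%. Cxcl1, a chemokine message known to be short-lived, carried 2 in 592 bases, against 3.83% of 3′ UTRs of that length with any. Elavl1 held 8 matches, most of them overlapping, in 4218 bases (17.9%), whereas Zc3h12a and Arid5a held none. These are matches of letters, and binding was not measured.

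The promoters of Zc3h12a and Arid5a are shown because these genes are the members that changed. Each runs from 250 bases before to 50 after the start site in RefSeq (GRCm38.p6), and capitals mark GC boxes (GGGCGG on either strand).
Zc3h12a, chr4:125127832-125128131, minus strand: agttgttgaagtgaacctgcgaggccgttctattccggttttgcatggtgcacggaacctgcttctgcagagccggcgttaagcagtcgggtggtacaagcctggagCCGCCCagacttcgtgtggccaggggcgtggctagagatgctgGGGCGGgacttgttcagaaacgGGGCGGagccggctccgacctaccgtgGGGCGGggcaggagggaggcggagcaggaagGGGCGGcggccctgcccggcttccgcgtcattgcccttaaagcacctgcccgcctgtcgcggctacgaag
Arid5a, chr1:36307483-36307782, plus strand: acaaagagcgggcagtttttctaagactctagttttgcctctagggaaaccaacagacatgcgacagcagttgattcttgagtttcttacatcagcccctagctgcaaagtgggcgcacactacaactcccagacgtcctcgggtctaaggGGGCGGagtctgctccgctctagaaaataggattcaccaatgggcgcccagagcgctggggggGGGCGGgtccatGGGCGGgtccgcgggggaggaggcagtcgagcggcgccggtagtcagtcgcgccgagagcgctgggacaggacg
Promoters were listed for 7 of the 8 members. The GC box was present in 35.7% of 32851 listed promoters, and occurred 5 times in that of Zc3h12a and 3 times in that of Arid5a. The AP-1 site (TGANTCA, 7.81% of promoters), the cAMP response element (TGACGTCA, 1.79%), the E-box (CACGTG, 7.15%), the TATA box (TATAAA, 13.6%), the NF-kB consensus (8.46%) and the CArG box of serum response factor (1.63%) were searched on both strands. None of these 6 matched in either window. Among the other members, Zfp36, a serum-induced early response gene, held a CArG box starting 58 bases before its start site, whose first base is also the last of a GC box. The promoters of Zfp36l1 and Rc3h1 each held an AP-1 site.

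Arid5a had the largest log2 fold change of the members. It is encoded on the plus strand of chromosome 1 (GRCm38, 36307733 to 36324029). In the libraries labelled Il17ra-/- it stood at 14.6, 21.8, 24.1, 25.3 and 41.8 CPM (replicates 1 to 5), and in those labelled WT at 109, 153, 102 and 82.5 CPM (replicates 1 to 4). The groups did not overlap, and the highest library labelled Il17ra-/-, replicate 5, remained well below the lowest library labelled WT, replicate 4. The log2 fold change was −2.13 (SE 0.25, 95% interval −2.67 to −1.59, edgeR adjusted p = 3.78e-04). Its mean level was 4.37 times higher in libraries labelled WT. Arid5a was also the most variable member, with a coefficient of variation of 39.1% in libraries labelled Il17ra-/- and 26.7% in those labelled WT. Without WT replicate 2, its highest library, the log2 fold change was −1.94 and the call held.

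Zc3h12a, on the minus strand of chromosome 4 from 125118423 to 125127840, fell with a narrower spread than Arid5a. It stood at 14.1, 18.5, 15.2, 16.5 and 20.6 CPM in libraries labelled Il17ra-/- and at 44.0, 46.8, 35.7 and 41.5 CPM in those labelled WT. Between 555 and 1608 counts stood behind each value, and the groups were well separated. The log2 fold change was −1.31 (SE 0.14, 95% interval −1.60 to −1.01, edgeR adjusted p = 2.17e-04), and −1.25 without WT replicate 2. The test placed it at rank 18 of 16039 by p. Replicate 1 was the lowest and replicate 5 the highest of the libraries labelled Il17ra-/- for both Zc3h12a and Arid5a, and WT replicate 2 was the highest of its group for both.

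**Figure D1:**
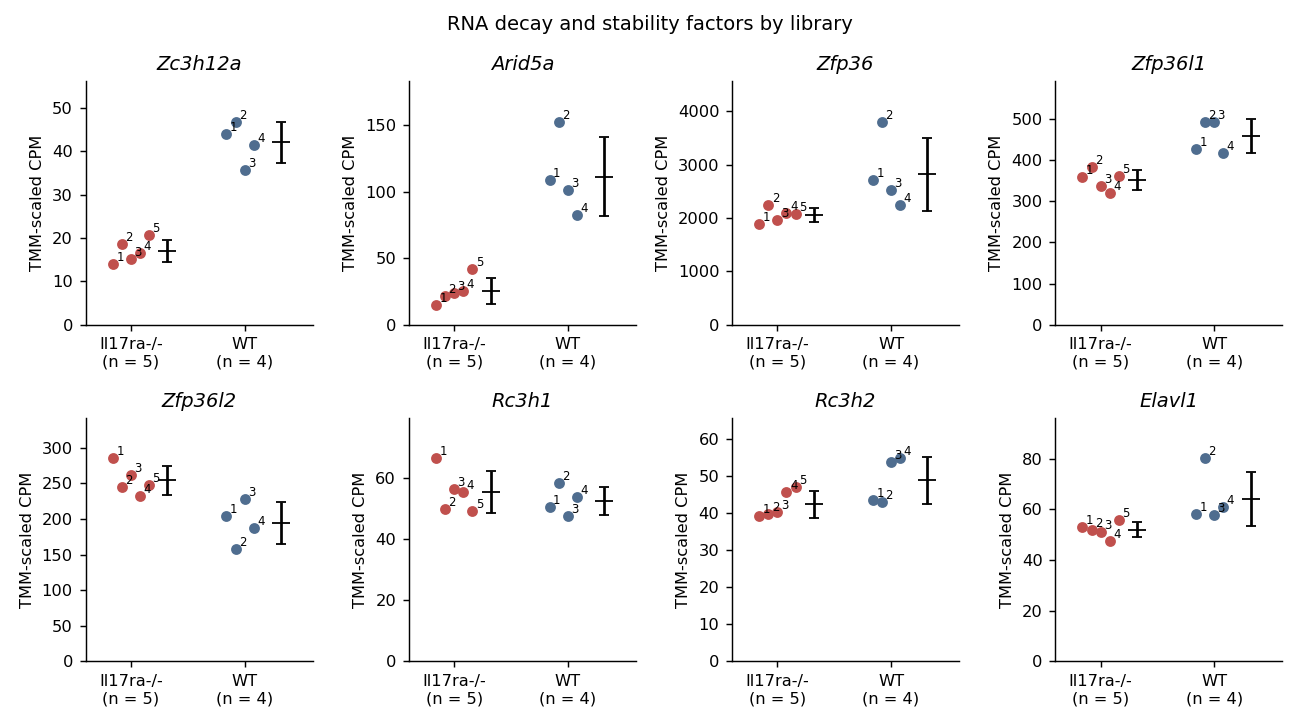
TMM-scaled CPM of the 8 genes in each library (points, with replicate numbers), libraries labelled Il17ra-/- left and WT right, with the mean and SD beside them. Zc3h12a reached 20.6 CPM at most in libraries labelled Il17ra-/- and started at 35.7 CPM in those labelled WT; for Rc3h1 and Rc3h2 the groups overlapped.

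The roquins, which share the stem-loop sites with regnase-1, did not pass the test. Rc3h1 stood at 66.6, 49.9, 56.4, 55.7 and 49.3 CPM in libraries labelled Il17ra-/- and at 50.7, 58.4, 47.8 and 54.0 CPM in those labelled WT, with overlapping groups. Its log2 fold change was 0.08 (95% interval −0.17 to 0.33, edgeR adjusted p = 0.792). It moved between 0.01 without Il17ra-/- replicate 1 and 0.13 without WT replicate 2, with no call (0.04 without WT replicate 3, 0.12 without Il17ra-/- replicate 5). With library totals only it was 0.14. Rc3h2, its paralogue, stood at 39.4, 39.7, 40.3, 45.7 and 47.0 CPM against 43.6, 43.0, 53.9 and 54.8 CPM. That is a log2 fold change of −0.20 (95% interval −0.45 to 0.05, edgeR adjusted p = 0.412; −0.26 without WT replicate 2), and these groups overlapped too. The intervals leave room for changes of up to 0.33 upwards for Rc3h1 and 0.45 downwards for Rc3h2 on the log2 scale.

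The 3 genes of the tristetraprolin family had small log2 fold changes of unlike sign, and none passed edgeR's test. Zfp36 stood at 1891, 2251, 1963, 2094 and 2079.6 CPM in libraries labelled Il17ra-/- and at 2704, 3805, 2518 and 2252 CPM in those labelled WT. The groups were separated by less than 2 CPM, and WT replicate 2 was far above the other libraries. The log2 fold change was −0.46 (95% interval −0.76 to −0.16, edgeR adjusted p = 0.110), and −0.28 without WT replicate 2. Zfp36l1, a paralogue that also drives decay of AU-rich messages, stood at 359, 384, 336, 321 and 361 CPM against 428, 493, 494 and 417 CPM. Its groups did not overlap, and the log2 fold change was −0.38 (95% interval −0.60 to −0.16, edgeR adjusted p = 0.0660), and −0.34 without WT replicate 2. Zfp36l2, the third paralogue, ran the other way, with 285, 245, 261, 232 and 248 CPM in libraries labelled Il17ra-/- against 205, 158, 227 and 187 CPM in those labelled WT. Every library labelled Il17ra-/- was above every library labelled WT, at a log2 fold change of 0.39 (95% interval 0.13 to 0.64, edgeR adjusted p = 0.110), 0.30 without WT replicate 2 and 0.26 without Il17ra-/- replicate 1 as well. DESeq2, a second count test, called all 3, with adjusted p of 0.0333 for Zfp36, 0.00455 for Zfp36l1 and 0.0273 for Zfp36l2, at log2 fold changes of the same sign. It called 6.96% of the genes it tested.

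Elavl1, whose product HuR stabilises AU-rich messages, stood at 53.1, 51.8, 51.1, 47.6 and 55.8 CPM in libraries labelled Il17ra-/- and at 58.2, 80.1, 57.7 and 60.8 CPM in those labelled WT. WT replicate 2 was again apart from the rest of its group. The log2 fold change was −0.31 (95% interval −0.56 to −0.06, edgeR adjusted p = 0.201), and −0.18 without that library. Counting all members, 6 of 8 had no overlap between the groups, 5 lower and 1 higher in libraries labelled Il17ra-/-, beside 9.18% of all tested genes (4.56% lower, 4.63% higher). That count depends on TMM scaling. As shares of library totals, Zfp36 overlapped, at 0.2278% in Il17ra-/- replicate 2 and 0.2176% in WT replicate 4. Elavl1 overlapped too, at 0.00574% in Il17ra-/- replicate 5 and 0.00565% in WT replicate 1.

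**Figure D2:**
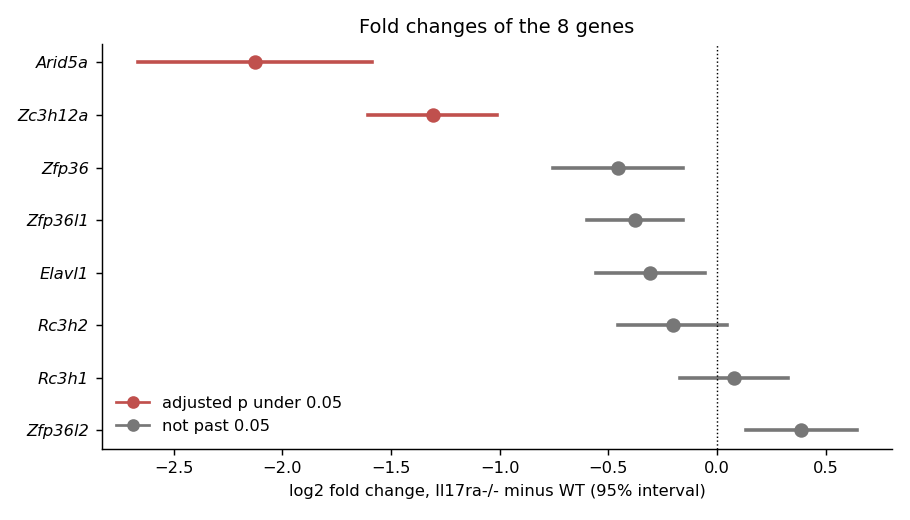
Log2 fold change (Il17ra-/- minus WT labels) of each gene with its 95% interval, red where the edgeR adjusted p was under 0.05. Arid5a (−2.13) and Zc3h12a (−1.31) stand apart from the other 6, which lie between −0.46 and 0.39.

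Levels were ranked between genes after division by exon length. Zfp36 was the most abundant of the 8 in every library, at 592 ± 39.6 CPM per kb in libraries labelled Il17ra-/- and 813 ± 197 CPM per kb in those labelled WT. Zfp36l1 followed at 118 ± 8.09 against 153 ± 13.8 CPM per kb, and Zfp36l2 at 72.0 ± 5.72 against 55.1 ± 8.24 CPM per kb, in that order in all 9 libraries. The level of Zfp36l1 may be too low, because a lincRNA on the other strand overlaps much of its exons. The remaining 5 were well below them, and their order differed between the groups. In libraries labelled WT, Zc3h12a took the fourth place (14.6 ± 1.64 CPM per kb), Arid5a the fifth (8.89 ± 2.37), Elavl1 the sixth (6.20 ± 1.03), Rc3h1 the seventh (4.66 ± 0.40) and Rc3h2 the eighth (2.49 ± 0.33), each in all 4 libraries. In libraries labelled Il17ra-/-, Zc3h12a (5.89 ± 0.91), Elavl1 (5.01 ± 0.29) and Rc3h1 (4.92 ± 0.62) lay within each other's spread, as did Rc3h2 (2.16 ± 0.19) and Arid5a (2.04 ± 0.80). Without division by length, Zfp36 alone held 69.4 to 73.8% of the members' counts in libraries labelled Il17ra-/- and 71.2 to 78.7% in those labelled WT. The annotated exons of Arid5a, Rc3h2 and Elavl1 include long alternative forms. With the longest transcript as the length, their means over the 9 libraries were 11.6, 5.06 and 9.99 CPM per kb, against 5.08, 2.31 and 5.54 CPM per kb with all exons, which changes the order below the third place. Arid5a was then at rank 5 to 8 in libraries labelled Il17ra-/- and at rank 4 or 5 in those labelled WT, so its ranks met.

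**Figure D3:**
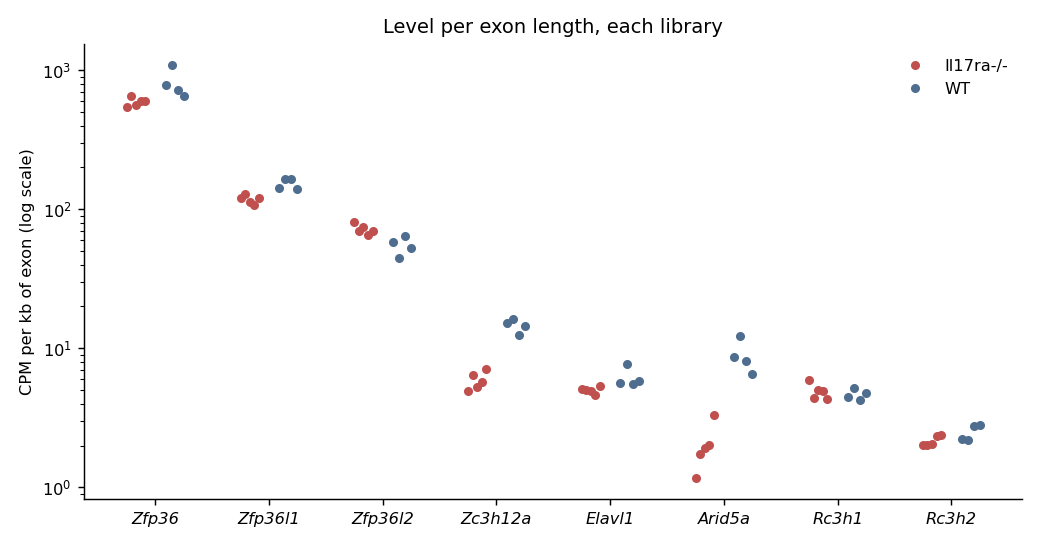
Level of each gene in each library as CPM per kb of exon (log axis), libraries labelled Il17ra-/- left of those labelled WT. Zfp36, Zfp36l1 and Zfp36l2 keep their order in all 9 libraries. With all exons as the length, Arid5a is at rank 7 or 8 in libraries labelled Il17ra-/- and at rank 5 in those labelled WT.

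Ratios of the counts of a pair of members within a library do not depend on how libraries are scaled. They are not corrected for length, so only their difference between libraries is read, as a description. Rc3h1 had 2.39 to 4.72 counts per Zc3h12a count in libraries labelled Il17ra-/- and 1.15 to 1.34 in those labelled WT, with no overlap. Zc3h12a had 0.493 to 0.967 counts per Arid5a count against 0.307 to 0.503, and these ranges met at Il17ra-/- replicate 5 and WT replicate 4. Within the tristetraprolin family, Zfp36l2 had 0.637 to 0.794 counts per Zfp36l1 count in libraries labelled Il17ra-/- and 0.321 to 0.479 in those labelled WT. The ratio of Zfp36 to Zfp36l1 overlapped widely, at 5.27 to 6.52 against 5.10 to 7.72.

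**Figure D4:**
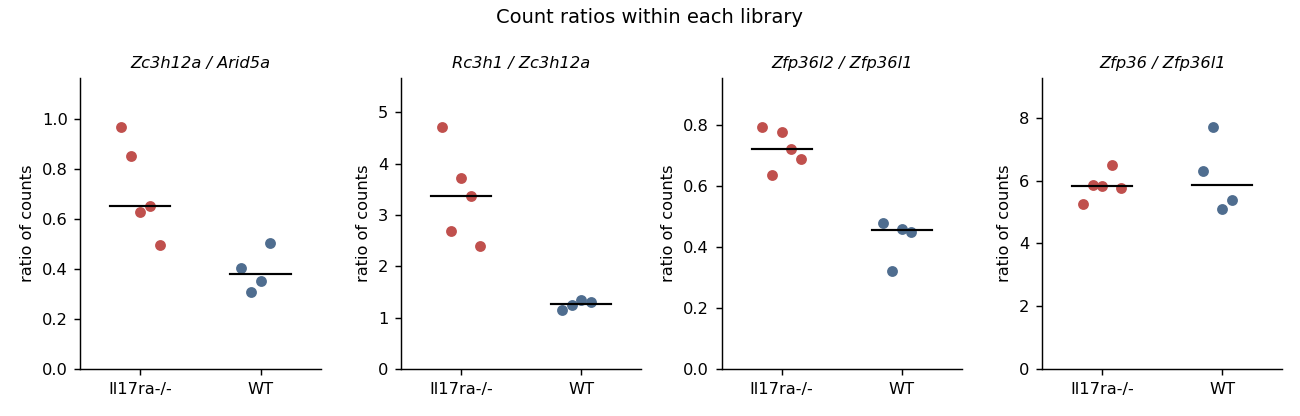
Ratio of counts of pairs of members in each library (points) with the group median (line), libraries labelled Il17ra-/- left and WT right. Zfp36l2 over Zfp36l1 and Rc3h1 over Zc3h12a show no overlap between the groups, and Zfp36 over Zfp36l1 overlaps.

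The genes whose profile over the 9 libraries was most like that of each changed member were taken from 12499 named genes with a mean of at least 1 CPM. Gene models named only by a number, clone or accession were left out of these. Likeness was the mean absolute difference of centred log2(CPM + 1) values, so that sizes of change count as well as order. For Zc3h12a they were Gem, a small GTPase, at a mean difference of 0.10, Trib1, a pseudokinase, at 0.11, and Wsb1, a SOCS-box protein, at 0.12. For Arid5a they included Irf1, a transcription factor of interferon responses, at 0.22, and Tnfaip6, a hyaluronan-binding protein, at 0.25. Their log2 fold changes were −1.10, −1.14, −1.16, −1.89 and −2.40, sizes that the choice by likeness fixes and that carry no test of their own. Irf1, for example, averaged 175 CPM in libraries labelled Il17ra-/- and 649.9 CPM in those labelled WT.

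Of the decay machinery that these proteins recruit, only BTG/TOB adaptors passed edgeR's test. Of 18 deadenylase subunits and BTG/TOB adaptors, 2 fell and none rose (11.1% called, median log2 fold change 0.05), beside the 3.06% of all genes. They were Tob1, an adaptor that links CCR4-NOT to its messages, at 53.9 ± 8.56 against 117 ± 9.77 CPM (−1.12, edgeR adjusted p = 2.58e-04), and Btg1, at 159.9 ± 7.60 against 235 ± 53.3 CPM (−0.55, adjusted p = 0.0395). The Btg1 call was lost without WT replicate 1 or 3 or any 1 library labelled Il17ra-/- (adjusted p 0.0730 to 0.109), at log2 fold changes of −0.58 to −0.53. It was also lost with library totals only (−0.49, adjusted p = 0.0689), with a replicate block (−0.51, adjusted p = 0.108) and without both WT replicate 2 and Il17ra-/- replicate 1 (−0.39, adjusted p = 0.0561). Of the 18, limma-voom called 3 and DESeq2 called 4 (Btg1, Tob1, Tob2 and Pan3), beside 6.96% of the genes DESeq2 tested. An unadjusted edgeR p under 0.05 belonged to 5, beside 2630 of all 16039 genes. Tob2 had −0.50 (edgeR adjusted p = 0.0635), Pan3 −0.38 (0.0547) and Btg2 −0.35 (0.217). In all, 6 of the 18 had a negative log2 fold change. All 11 Cnot genes were among those that did not pass. Of 10 tested paralogues and other AU-rich element binders, Tial1, a stress granule protein that binds U-rich messages, fell to 57.6 ± 7.48 CPM, against 82.3 ± 8.63 CPM (−0.52, adjusted p = 0.0350). Its call was lost without the same libraries, taken 1 at a time (adjusted p 0.0512 to 0.109), at −0.56 to −0.44. It was also lost with library totals only (−0.45, adjusted p = 0.0779) and with a replicate block (−0.55, adjusted p = 0.0870). The regnase paralogues Zc3h12b and Zc3h12c did not pass (0.32 and 0.37), and Zc3h12d, Zfp36l3 and the neuronal Elavl2, Elavl3 and Elavl4 were too low to test.

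None of the 9 decapping genes or the 22 genes of nonsense-mediated decay and the exosome passed the test of edgeR, DESeq2 or limma-voom. With 3.06% of all genes called by edgeR, 0 calls in lists of this size are near the background. An unadjusted edgeR p under 0.05 belonged to 1 and 0 of them, beside 2630 of all 16039 genes. The smallest p belonged to Edc3, a decapping enhancer (0.50, adjusted p = 0.256), and Ddx6, a helicase of decapping (0.26, adjusted p = 0.311), with 0.32 and 0.15 without WT replicate 2. In the other list they belonged to Dis3l, an exosome nuclease (−0.19, adjusted p = 0.412), and Ttc37, of the SKI complex (0.28, adjusted p = 0.467, and 0.13 without WT replicate 2). Upf1, the helicase that regnase-1 works with, had a log2 fold change of −0.10. Of 13 kinases, adaptors and phosphatases acting on the members, 0 passed edgeR's or limma-voom's test, with 3.06% of all genes called by edgeR. DESeq2 called 1 of them, beside 6.96% of the genes it tested. An unadjusted edgeR p under 0.05 belonged to 4 of the 13, a larger share than the 2630 of all 16039 genes. That excess was not tested. Traf6 had 0.47 (adjusted p = 0.121, and 0.0470 with DESeq2), and Malt1, the protease that cleaves regnase-1, had 0.60 (adjusted p = 0.139). Mapkapk2, the kinase that inhibits tristetraprolin, had 0.07.

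Among transcripts described as targets of the members, those that passed the test were mostly lower in libraries labelled Il17ra-/-. The lists were written with earlier results of these data known, and their genes overlap. Of 10 tested regnase-1 and roquin targets, 3 fell and none rose (median −0.89). Of 14 tristetraprolin family targets, 6 fell and 1 rose (median −0.83). Of 7 Arid5a targets, 3 fell (median −0.55), and of 9 HuR targets, 2 fell (median −0.23). These 2 lists add no called gene of their own. The 3 Arid5a targets (Nfkbiz, Cxcl1 and Il6) were the same 3 as for regnase-1 and roquin. The 2 HuR targets (Cdkn1a and Cxcl1) were also among the tristetraprolin family targets that fell. The median of all tested genes was −0.00 and 3.06% of them were called. Over all pathway lists 11 distinct genes of 98 tested were called (1 higher, 10 lower), and 6, 7, 6 and 7 without Il17ra-/- replicate 1, 2, 3 or 4.

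Nfkbiz, the regulator whose stem-loops are printed above, stood at 222 ± 68.5 CPM in libraries labelled Il17ra-/- and 581 ± 63.3 CPM in those labelled WT (−1.39, adjusted p = 0.00120). Cxcl1, with its pair of nonamers, stood at 237 ± 63.6 against 561 ± 211 CPM (−1.24, adjusted p = 0.00907). Il6, the cytokine on which Arid5a and regnase-1 are known to compete, stood at 91.6 ± 48.9 against 294 ± 179 CPM, with overlapping groups (−1.68, adjusted p = 0.0375). The Il6 call was lost without WT replicate 2 or 4 or Il17ra-/- replicate 1, 2, 3 or 4 (adjusted p 0.0708 to 0.109). Its log2 fold change was then −1.18 without WT replicate 2 and −1.77 to −1.48 without the others. Without both WT replicate 2 and Il17ra-/- replicate 1 it was −0.98 (adjusted p = 0.0750), and with a replicate block −1.93 (adjusted p = 9.67e-04). Cdkn1a, the cell cycle inhibitor p21, stood at 110.4 ± 8.44 against 349 ± 59.3 CPM (−1.66, adjusted p = 2.16e-05), and Myc at 201 ± 33.3 against 388 ± 84.1 CPM (−0.95, adjusted p = 0.00419). Notch1, a target of Zfp36l1 and Zfp36l2 in lymphocytes, rose to 46.8 ± 8.50 CPM, against 18.7 ± 7.17 CPM (1.32, adjusted p = 0.00951). Stat3, which Arid5a is known to stabilise in T cells, had a log2 fold change of −0.02, and Myod1, a target of both tristetraprolin and HuR, one of 0.74 (adjusted p = 0.123). Tnf was below 1 CPM on average in both groups.

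**Figure D5:**
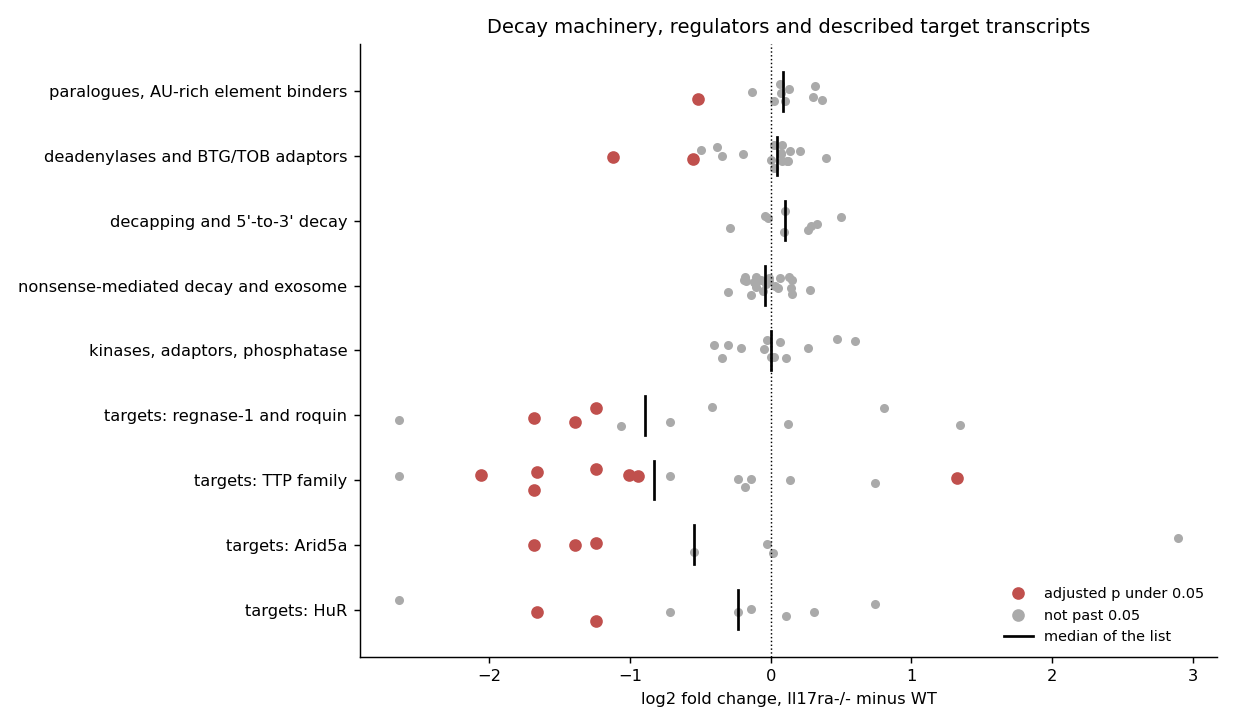
Log2 fold change of each tested gene (points, red where the edgeR adjusted p was under 0.05) by list, with the list's median (line). The red points are Tial1, Tob1, Btg1 and target transcripts, and all but Notch1 (1.32) lie below 0.

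Exons of Zfp36 and Zfp36l2 overlap antisense models by 125 and 105 bp, Zfp36l1 overlaps the lincRNA Gm26669 by 1672 bp, and Elavl1 overlaps Ccl25 by 204 bp, all on the other strand. Without strand, reads there cannot be assigned. The partners' mean counts were at most 88.7, against 2196 for Elavl1 and more for the others. As these counts also leave out the shared bases, they do not bound the reads that the members lost. For Zfp36l1 the shared bases are 1672 of 2990, and its level per kb was divided by all 2990. Zfp36 is annotated as 1 unbroken exonic stretch, so reads from its intron were counted too.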

How the data were processed

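The 9 deposited files hold whole-number counts from featureCounts 1.6.0, per the file headers, over GENCODE M21 exons (GRCm38), for read pairs and without strand. The submitters' processing notes name STAR as aligner, without a version. All 55536 identifiers matched GENCODE M21. Genes were filtered with filterByExpr, scaled with TMM and tested with the quasi-likelihood method of edgeR (version 4.0.16, R 4.3.3), with the genotype label as the only term and Benjamini-Hochberg adjustment over all tested genes. Tested on simulated data for this comparison (15450 genes), the procedure recovered 18.5% of genes changed 1.5-fold, 59.4% at 2-fold and 81.5% at 4-fold. Standard errors were derived from the F statistic, and 95% intervals use the t distribution. Alternatives were other scalings and filters, DESeq2 1.42.0, limma-voom (limma 3.58.1), a replicate block and leaving out libraries. The members, gene lists and tests were chosen with earlier results of these data known. Named genes were the 8 members, Il17ra, up to 4 called genes per list (or the 2 with the smallest p), and 3 like profiles per called member, of which 1 is not reported here; the marker genes, Upf1, Stat3, Myod1, Tnf, Mapkapk2 and the regnase and HuR paralogues were added for their role. Sequences came from RefSeq promoters and GENCODE M21 transcripts.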

Additional observations from a re-analysis of the deposited data

Results flagged for a closer look

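Elavl1 in WT replicate 2 stood at 80.1 CPM, with the next library labelled WT at 60.8 CPM. That gap was 0.862 of the group's range, more than Dixon's criterion allows for 4 libraries. It was the only value set apart in this way among the 16 groups of the 8 members, and chance sets about 5% of groups apart. Without this library the Elavl1 log2 fold change was −0.18 (edgeR adjusted p = 0.319).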

How the results depend on the processing

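Zc3h12a and Arid5a were called under all 18 alternatives, with log2 fold changes of −1.39 to −1.19 and −2.37 to −1.79, and no member reversed its sign. DESeq2 called 1066 genes over the transcriptome, against 491 with edgeR, and added Zfp36 (−0.45), Zfp36l1 (−0.37) and Zfp36l2 (0.39) to the called members; the cause was not tested. Leaving out 1 library gave 275 to 567 calls over all genes (275 without Il17ra-/- replicate 3, 323 without replicate 1 and 567 without WT replicate 2) and 6 to 12 called genes over the pathway lists, against 11, the highest also without WT replicate 2; the cause was not tested. With the longest transcript as length, the mean levels were 5.06 CPM per kb for Rc3h2, 11.6 for Arid5a and 9.99 for Elavl1. The labels do not say whether libraries with the same replicate number were paired, and these data do not settle it. Their deviations from the group means correlated at 0.03 to 0.08, each under 0.1. As a hint from the data and not the design, Il17ra-/- replicates 2, 3 and 4 correlated best with the WT library of their own number and replicate 1 with WT replicate 4. With the replicate block 363 genes were called, Zc3h12a at −1.39 and Arid5a at −2.37, and the calls of Tial1 and Btg1 were lost. Il17ra-/- replicate 5 has no WT library of its number, so it adds nothing to the genotype term of that fit. Leaving it out without a block gave −1.38 and −2.37. The block lowered the SE of Il6 from 0.403 to 0.155 and of Cxcl1 from 0.231 to 0.119, and raised that of Tob1 from 0.124 to 0.148. With 3 counts worth 0.0646 to 0.0959 CPM in a library, depth limits none of the members.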
